A study of Mus musculus with 15 samples.

Results

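The cornea of mice with 1 disrupted copy of Opa1 was compared between 3 and 6 months of age, as 4 libraries of OPA1+/- cornea at 6 months against 4 libraries of OPA1+/- cornea at 3 months. These are 8 of the 15 libraries of the study, taken by the genotype and age in the sample titles. The genes described are the 15564 of 55357 annotated genes with 10 or more counts in 3 or more of the 8 libraries. The remaining 7 libraries, 4 of OPA1+/+ cornea at 3 months and 3 at 6 months, entered the same statistical fit and served to test whether an age difference depended on genotype. All groups were mouse cornea with no treatment named in the labels, and the title of the series places the Opa1 mutation in the setting of inherited mitochondrial dysfunction and corneal sensory innervation. The labels do not name the Opa1 allele, the strain, the sex or the number of animals behind a library, so p-values measure the spread between these libraries, which may in part be technical.

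Opa1 encodes a dynamin-like GTPase of the inner mitochondrial membrane that fuses inner membranes and holds the cristae in shape, and loss of 1 copy in people causes dominant optic atrophy. The cornea is a clear tissue of stratified epithelium, a collagen-rich stroma kept by keratocytes and an inner endothelium, with dense sensory nerve endings in the epithelium. Its stroma is built from thin fibrils of type I and type V collagen held by small proteoglycans, with type VI collagen between them. Matrix metalloproteinases cut collagens and other matrix proteins, and their activity is set by activation at the cell surface and by the tissue inhibitors of metalloproteinases.

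Gene positions are those of the deposited files, whose GENCODE release is on GRCm39. Opa1 itself (chr16:29398152-29473702) had 57.6, 49.9, 45.3 and 50.4 CPM (counts scaled to a common, TMM-adjusted library total) in the 4 libraries at 3 months and 47.01, 49.004, 46.8 and 48.6 CPM at 6 months. The 2 ages overlapped, the log2 fold change was -0.09 ± 0.06 (standard error) with an edgeR adjusted p of 0.707, and an exact two-sided permutation test over the 8 libraries gave p = 0.4, where 0.0286 is the smallest value that 4 against 4 allows. In the 7 OPA1+/+ libraries Opa1 ran from 65.3 to 73.3 CPM, above every OPA1+/- library.

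The 8 libraries held 12654656 to 18194946 counts, so that a count of 0 allows up to 0.165 to 0.237 CPM (3 counts, counting error only). Corneal identity was clear in each: the epithelial keratin Krt12 lay between 27283 and 31546 CPM at 3 months and between 26566 and 28735 CPM at 6 months. The keratocyte proteoglycan gene Kera had 189.6, 200.4, 195 and 213 CPM at 3 months and 192, 188, 199 and 139 CPM at 6 months, the last library being the lowest. The endothelial transporter gene Slc4a11 ran from 139 to 209 CPM and from 170.4 to 247 CPM. In a bulk sample, fewer cells of a type and less RNA per cell cannot be told apart. Replicate 4 at 3 months stood apart in transcripts of neighbouring tissue, with 30.5 CPM of the rod transducin gene Gnat1 against 2.67 to 3.98 CPM in the others of its age, and 1.92 to 4.47 CPM at 6 months. A further property of the libraries followed age in this genotype. Mir6236 and Lars2 lie over sequence that collects leftover ribosomal RNA reads in ribosomal RNA-depleted libraries. These 2 genes and ENSMUSG00000119584.1 were chosen after their values were seen. Mir6236 had 35.4, 43.6, 78.9 and 57.8 CPM at 3 months and 297, 307, 145 and 136 CPM at 6 months. All 6-month libraries were higher than all 3-month libraries, whereas the OPA1+/+ libraries were mixed at both ages, with 47.004, 189, 252 and 54.98 CPM at 3 months and 26.6, 38.8 and 218 CPM at 6 months. The log2 fold change in OPA1+/- was 2.04 ± 0.74 with an edgeR adjusted p of 0.431. Lars2 had 73.3, 74.7, 126 and 100.3 CPM and 361, 382, 211 and 248 CPM at the 2 ages, and the abundant unnamed gene ENSMUSG00000119584.1 (chr17:40157244-40159092) had 833, 1049.8, 1675 and 1312 CPM and 6732, 6721, 3006 and 3133 CPM, in much the same order of libraries.

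Between 3 and 6 months, 15 genes changed in OPA1+/- cornea (adjusted p under 0.05, edgeR's quasi-likelihood test with Benjamini-Hochberg adjustment), which is 0.0964% of the genes tested. The 10 genes that fell (0.0643% of the genes tested) were Col11a1, Wnt11, Dkk1, Mmp2, Olfml3, Ltbp1, Srpx2, Mmp15, Col16a1 and Mmp14. The 5 genes that rose (0.0321%) were Vldlr, Gm13293, Id4, Dlg2 and the unnamed gene ENSMUSG00002076161.1. Gm13293 and ENSMUSG00002076161.1 were chosen for description after their values were seen. For each of the 15 genes the 4 libraries of one age lay wholly above the 4 of the other age, as they also did for 3.03% of all genes tested with the higher values at 6 months and 3.06% with the lower values there. Most of these calls lie close to the threshold, with adjusted p from 0.0402 to 0.0492 for 14 of the 15 genes and 0.00598 for ENSMUSG00002076161.1. No call changed its sign in any of 26 other settings, but the number of calls ran from 1 to 24 when single libraries were left out. Among OPA1+/- libraries, omitting 3-month replicate 1, 2, 3 or 4 left 1, 2, 2 and 4 calls, and omitting 6-month replicate 1, 2, 3 or 4 left 1, 1, 3 and 1. Among OPA1+/+ libraries, omitting 3-month replicate 1 or 2 left 1 call, omitting 3-month replicate 3 gave 24, and omitting 6-month replicate 2 left 8. ENSMUSG00002076161.1 alone kept its call in all 26 settings. These settings do not include the fold change minimum described further below, which the log2 fold change of ENSMUSG00002076161.1 (0.39) did not reach. With the mean level of Mir6236, Lars2 and ENSMUSG00000119584.1 as a covariate, 1 gene was called. Each of these 3 genes separated the 2 ages in OPA1+/-, so this covariate and age cannot be fully told apart there. Calls lost and values made smaller in that fit therefore do not show what lies behind the age differences.

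**Figure D1:**
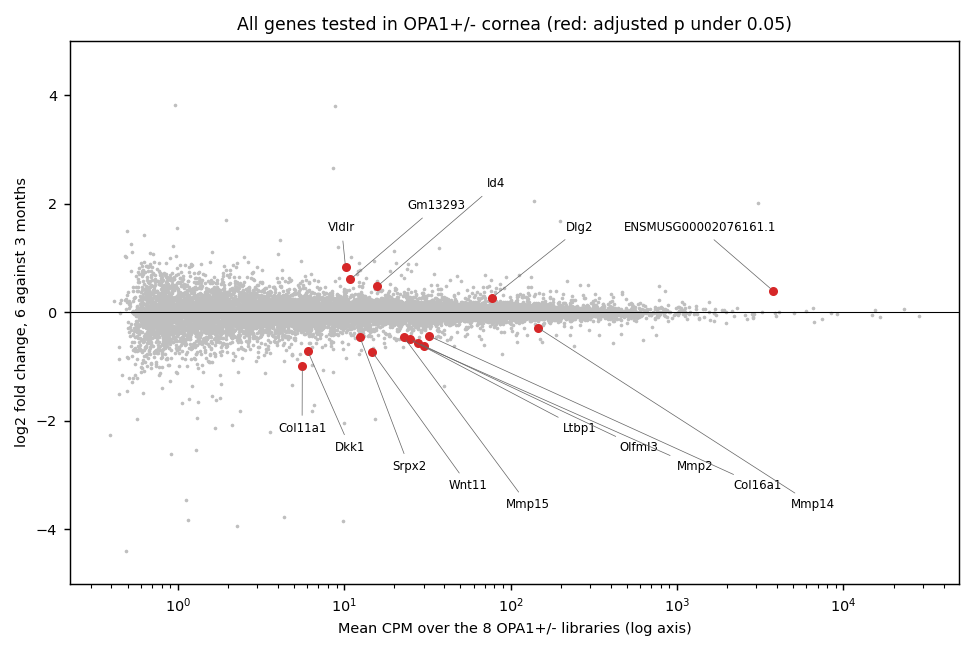
Each point is 1 of the 15564 genes tested, with its mean CPM over the 8 OPA1+/- libraries on a log axis and its log2 fold change of 6 against 3 months on the other axis. The 15 genes with an adjusted p under 0.05 are red and named. They have moderate fold changes, from -0.996 (Col11a1) to 0.83 (Vldlr), and larger fold changes among the grey points did not pass the test.

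**Figure D2:**
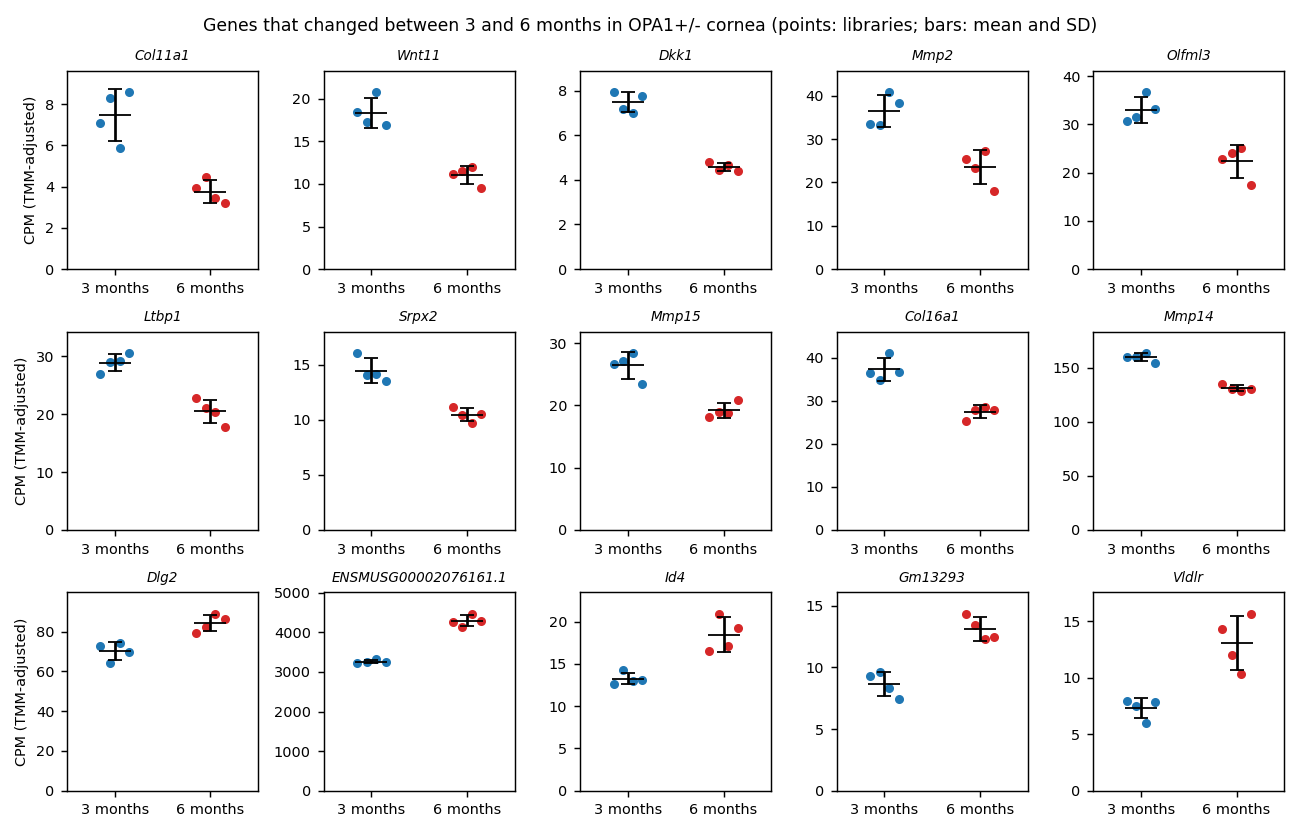
CPM of the 15 genes that changed, in the 4 libraries at 3 months (blue) and the 4 at 6 months (red), with the mean and the SD as bars. In every panel the libraries of the 2 ages do not overlap.

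Matrix metalloproteinases made up 3 of the 10 genes that fell. Mmp14 (chr14:54669069-54682821) encodes a membrane-anchored collagenase that activates the gelatinase encoded by Mmp2, and had the highest level per length of the 10, with a mean of 24.4 CPM per kilobase against 8.9 for Mmp2. It had 160.0, 159.9, 164 and 155 CPM at 3 months and 135, 131, 129 and 131 CPM at 6 months. The 2 sets of libraries were each tight and well apart, and Mmp14 fell by 17.8% (log2 fold change -0.28 ± 0.05, edgeR adjusted p = 0.0402). Mmp2 (chr8:93553919-93580048), the gelatinase itself, had 33.5, 33.3, 40.9 and 38.2 CPM at 3 months and 25.3, 23.4, 27.3 and 18.03 CPM at 6 months. Its mean fell by 35.4% (log2 fold change -0.63 ± 0.11, edgeR adjusted p = 0.0413), and the lowest value was that of replicate 4 at 6 months, the library low in Kera. Mmp15 (chr8:96078896-96101708), a second membrane-anchored protease, had 26.6, 27.2, 28.5 and 23.4 CPM at 3 months and 18.1, 19.02, 18.7 and 20.9 CPM at 6 months. That is a fall of 27.2% (log2 fold change -0.46 ± 0.08, edgeR adjusted p = 0.0413), and here replicate 4 was the highest of the libraries at 6 months.

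Of 27 listed genes of matrix degradation, 21 were tested, and 3 fell (0.0643% of all genes tested did) and none rose by the edgeR test. The median log2 fold change was -0.17 against 0.00173 over all genes tested. The other 18 did not pass, among them, chosen after their values were seen, Timp2, Timp3, the collagenase gene Mmp13 (0.22 ± 0.59) and the stromelysin gene Mmp3 (-0.30 ± 0.51), the last pair with wide errors. The inhibitor gene Timp2, whose product takes part in the activation of the Mmp2 protease by Mmp14, had 72.8, 78.3, 80.6 and 80.7 CPM at 3 months and 67.9, 73.9, 73.6 and 62.2 CPM at 6 months. The ages overlapped for Timp2 (log2 fold change -0.17 ± 0.07, edgeR adjusted p = 0.485). Timp3 had -0.15 ± 0.14 and the lysosomal collagen-cutting protease gene Ctsk -0.42 ± 0.17 on the same scale, and neither passed the test.

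The promoter sequences of the membrane-anchored proteases and of the 2 collagens that fell are shown because these genes fell together and their upstream letters can be set side by side. They are the 250 bases before the gene's start in RefSeq on build GRCm38.p6, 5′ to 3′ on the gene's strand, all on the plus strand. Capitals mark matches, on either strand, to a GC box (GGGCGG) or a CCAAT box (CCAAT), the first of which Sp-family factors and the second of which NF-Y are known to bind. In the Mmp14 sequence a CCAAT box and a GC box overlap by 1 base.
Mmp14 chr14:54431348-54431597: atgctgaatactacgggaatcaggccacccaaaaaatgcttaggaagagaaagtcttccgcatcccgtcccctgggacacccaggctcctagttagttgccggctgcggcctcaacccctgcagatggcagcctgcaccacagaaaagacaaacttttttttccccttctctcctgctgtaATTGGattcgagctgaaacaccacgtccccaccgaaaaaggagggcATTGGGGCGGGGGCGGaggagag
Mmp15 chr8:95352046-95352295: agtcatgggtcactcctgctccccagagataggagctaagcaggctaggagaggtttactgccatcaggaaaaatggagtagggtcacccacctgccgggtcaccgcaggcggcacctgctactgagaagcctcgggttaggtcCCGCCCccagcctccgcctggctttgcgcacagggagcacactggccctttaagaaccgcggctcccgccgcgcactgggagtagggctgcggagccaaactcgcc
Col11a1 chr3:114030290-114030539: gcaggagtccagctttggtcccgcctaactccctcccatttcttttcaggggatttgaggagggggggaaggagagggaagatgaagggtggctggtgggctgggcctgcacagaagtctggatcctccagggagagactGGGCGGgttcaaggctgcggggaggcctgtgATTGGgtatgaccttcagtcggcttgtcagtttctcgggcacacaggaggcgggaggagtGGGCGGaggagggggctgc
Col16a1 chr4:130047590-130047839: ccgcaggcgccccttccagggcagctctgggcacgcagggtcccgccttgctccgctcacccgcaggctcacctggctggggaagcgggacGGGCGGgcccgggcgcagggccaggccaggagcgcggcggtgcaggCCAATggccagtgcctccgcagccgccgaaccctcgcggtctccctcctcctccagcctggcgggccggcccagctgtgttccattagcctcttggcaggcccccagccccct
All 4 hold a GC box, and 3 of them, Mmp14, Col11a1 and Col16a1, also hold a CCAAT box. Of the 10 genes that fell, 9 had a promoter in the RefSeq table, and 6 of these 9 held a GC box, against 35.4% of 27025 genes with a promoter of the same length. A CCAAT box was found in 4 of 9 against 37.5%, and a TATA box (TATAAA) in 2 of 9, Dkk1 and Wnt11, against 14.3%. The AP-1 site TGANTCA, known from many metalloproteinase promoters, was found in 1 of 9, Srpx2, against 7.82%, and the TEAD site GGAATG in 1 of 9, Olfml3, against 14.4%. Among the genes that rose, Gm13293, Id4 and Vldlr held a GC box, and these and Dlg2 a CCAAT box. Dlg2 also held a TATA box, and Dlg2 and Id4 the TEAD site. The 27025 genes were not limited to the genes tested here. A match describes letters within this window and no binding.

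Collagen genes supplied 2 of the 10 falls. Col11a1 (chr3:113824189-114014367), a chain of the type XI collagen that nucleates and limits fibrils, had 7.09, 8.31, 5.85 and 8.6 CPM at 3 months and 3.91, 4.45, 3.43 and 3.21 CPM at 6 months. It had the largest fold change of the 15 genes, a fall of 49.9% (log2 fold change -0.996 ± 0.17, edgeR adjusted p = 0.0402). Col16a1 (chr4:129941633-129993076), a collagen that sits on the surface of fibrils, had 36.6, 34.9, 41.2 and 36.7 CPM at 3 months and 25.4, 27.9, 28.7 and 27.98 CPM at 6 months, without overlap. It fell by 26.3% (log2 fold change -0.44 ± 0.08, edgeR adjusted p = 0.0462).

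Most other collagen genes had negative values that did not pass the test. Among fibril-forming collagens, 10 of 11 listed were tested, 1 fell, none rose, 9 had a negative fold change (49.4% of all genes tested did) and the median log2 fold change was -0.49. For 6 of these 10 the libraries at 6 months all lay below those at 3 months, as they did for 3.06% of all genes tested. Col24a1 had 2.98, 2.75, 2.65 and 2.85 CPM at 3 months and 1.5, 1.53, 1.57 and 1.8 CPM at 6 months, a clean separation at a low level (log2 fold change -0.81 ± 0.18, edgeR adjusted p = 0.122). The type V chain gene Col5a2 had 72.6, 72.4, 82.5 and 82.98 CPM at 3 months and 57.8, 60.6, 50.9 and 51.6 CPM at 6 months, with a log2 fold change of -0.49 ± 0.11 and an edgeR adjusted p of 0.125. Its partner Col5a1 had 135, 104, 147 and 132 CPM at 3 months and 103, 92.7, 84.7 and 73.5 CPM at 6 months (-0.55 ± 0.15). The main stromal collagen gene Col1a1 (chosen after its values were seen) ranged over 662, 629, 861 and 776 CPM at 3 months and 534, 595, 493 and 427 CPM at 6 months (-0.51 ± 0.15). The libraries of the 2 ages did not overlap for these 4 genes, but the spread within an age was wide for Col5a1 and Col1a1. Col11a2, also chosen after its value was seen, was the single tested fibril-forming collagen with a positive value, 0.06 ± 0.20.

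Of 21 other collagen genes listed, 14 were tested, Col16a1 fell, none rose and 11 had a negative value, with a median of -0.21. The 3 chains of type VI collagen, which forms beaded filaments between fibrils, had like values. Col6a1 had 174, 171, 203 and 186 CPM at 3 months and 131, 137, 134 and 104 CPM at 6 months (-0.54 ± 0.14, edgeR adjusted p = 0.207), Col6a2 had a log2 fold change of -0.50 ± 0.13 and Col6a3 of -0.42 ± 0.10. None of the 3 passed the test, and for each the 2 ages did not overlap. The hemidesmosomal Col17a1 of the epithelium had 0.01 ± 0.04 on this scale. Of the type VIII chains of the endothelial Descemet membrane, Col8a1 had 0.08 ± 0.07 and Col8a2 -0.13 ± 0.05, and neither passed. These 3 genes were chosen after their values were seen.

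**Figure D3:**
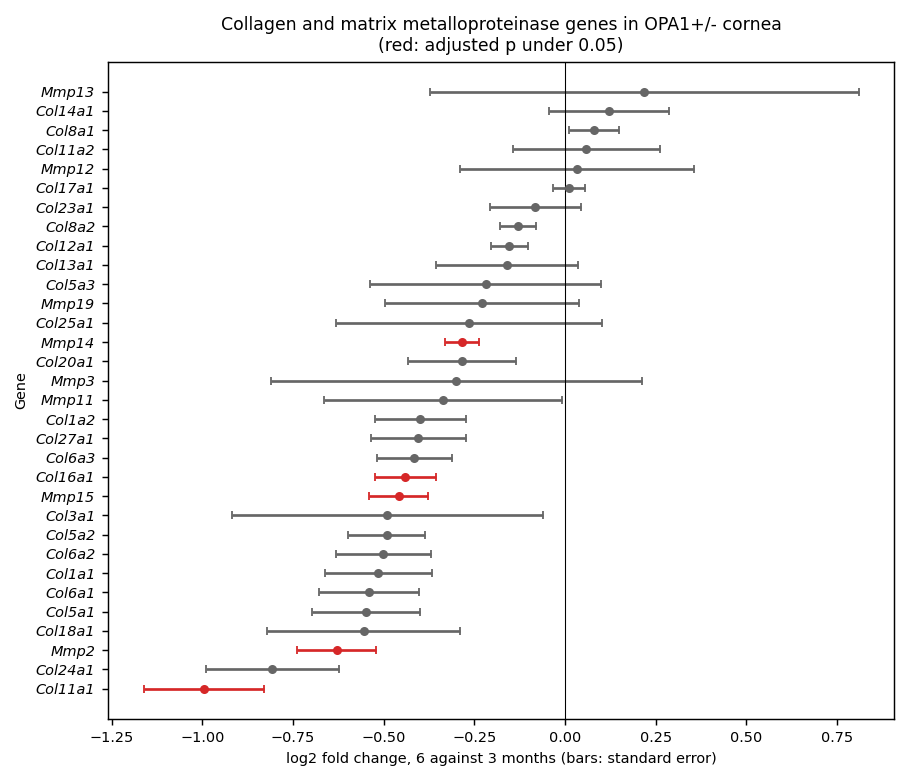
Log2 fold change of 6 against 3 months in OPA1+/- cornea, with the standard error as bars, for 32 tested collagen and matrix metalloproteinase genes. Genes with an adjusted p under 0.05 are red. Values are negative for 26 of the 32 genes and positive for 6, and 5 genes passed the test.

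Helpers of collagen synthesis, basement membrane genes and elastic fibre genes were examined with the same fit. Of 28 collagen synthesis genes listed, 26 were tested and none passed, 23 had a negative value, and the median was -0.12. Sparc, a matrix protein that binds collagen, had a log2 fold change of -0.27 ± 0.06 and Serpinh1, the collagen chaperone of the endoplasmic reticulum, -0.24 ± 0.07. Both were chosen after their values were seen, and both had non-overlapping ages. Of 28 basement membrane genes, 27 were tested and none passed, 26 had a negative value and the median was -0.14. Lama2, a laminin chain chosen after its values were seen, had 20.7, 22.3, 25.05 and 24.6 CPM at 3 months and 17.9, 17.02, 16.3 and 15.05 CPM at 6 months, with no overlap (-0.48 ± 0.11, edgeR adjusted p = 0.122).

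Ltbp1 was the member of the elastic fibre list that passed. Its product stores latent transforming growth factor beta in the matrix. Ltbp1 (chr17:75312563-75699507) had 26.9, 28.98, 29.2 and 30.6 CPM at 3 months and 22.8, 21.01, 20.3 and 17.9 CPM at 6 months, a fall of 29.1% (log2 fold change -0.50 ± 0.09, edgeR adjusted p = 0.0462). Of 22 elastic fibre genes listed, 21 were tested, 1 fell, none rose, 16 had a negative value, and the median was -0.28. The microfibril gene Fbn1 had 20.6, 18.8, 22.9 and 23.005 CPM at 3 months and 17.8, 13.4, 17.8 and 14.03 CPM at 6 months (-0.43 ± 0.11, edgeR adjusted p = 0.182). Fbln5, which links elastin to cells, had -0.29 ± 0.07.

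Olfml3 (chr3:103629538-103645317) and Srpx2 (chrX:132809175-132833195) encode secreted matrix proteins. Olfml3 had 30.7, 31.5, 36.7 and 33.2 CPM at 3 months and 22.8, 24.004, 25.05 and 17.4 CPM at 6 months, a fall of 32.4% (log2 fold change -0.56 ± 0.10, edgeR adjusted p = 0.0413). As for Mmp2, replicate 4 at 6 months was the lowest. Srpx2 had 16.1, 14.1, 14.1 and 13.5 CPM at 3 months and 11.2, 10.4, 9.73 and 10.5 CPM at 6 months, a fall of 27.6% (-0.47 ± 0.09, edgeR adjusted p = 0.0462).

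Keratocyte transcripts had lower values at 6 months as well. Of 18 keratocyte genes listed, 15 were tested and none passed, 12 had a negative value and the median was -0.15. The mean score of the list (log2 CPM relative to each gene's mean) was 0.06, 0.14, 0.23 and 0.03 in the libraries at 3 months and -0.13, -0.03, 0.02 and -0.31 at 6 months. All 4 libraries at 6 months were below all 4 at 3 months, with replicate 4 lowest. Lum, a keratocyte proteoglycan, had 169, 171, 169 and 167 CPM at 3 months and 143, 152, 158 and 119.5 CPM at 6 months (-0.24 ± 0.12, edgeR adjusted p = 0.566). With the mean level of Kera and Lum in each library as a covariate, the log2 fold change was -0.83 for Col11a1, -0.50 for Mmp2, -0.43 for Olfml3, -0.49 for Mmp15 and -0.31 for Mmp14. The edgeR adjusted p was then between 0.0665 (Mmp14) and 0.123 (Col11a1) for these 5 genes, all past the threshold without the covariate. The other genes that fell had larger values, 0.136 each for Wnt11, Dkk1, Ltbp1 and Srpx2 and 0.212 for Col16a1. Their log2 fold changes were -0.59, -0.72, -0.35, -0.47 and -0.39 in this order. In that fit the median was -0.36 for the fibril-forming collagens, -0.08 for the keratocyte list, -0.07 for matrix degradation, -0.07 for collagen synthesis and -0.13 for the elastic fibre list. The keratocyte list holds Kera, a gene of the covariate, so its median in that fit is not a separate result. In OPA1+/- the 2 ages did not overlap for Lum, though they did for Kera. The covariate of Kera and Lum and age therefore cannot be fully told apart there. Values made smaller in that fit do not show what lies behind the age differences. With the covariate of Mir6236, Lars2 and ENSMUSG00000119584.1, the log2 fold change was -0.78 for Col11a1, -0.60 for Mmp2, -0.26 for Col16a1 and -0.34 for Mmp14, with edgeR adjusted p from 0.159 (Mmp14) to 0.498 (Col16a1). The medians were then -0.37 for the fibril-forming collagens, -0.06 for the keratocyte list, -0.11 for matrix degradation, -0.00892 for collagen synthesis and -0.06 for the elastic fibre list. As stated above, this covariate and age cannot be fully told apart in OPA1+/-.

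**Figure D4:**
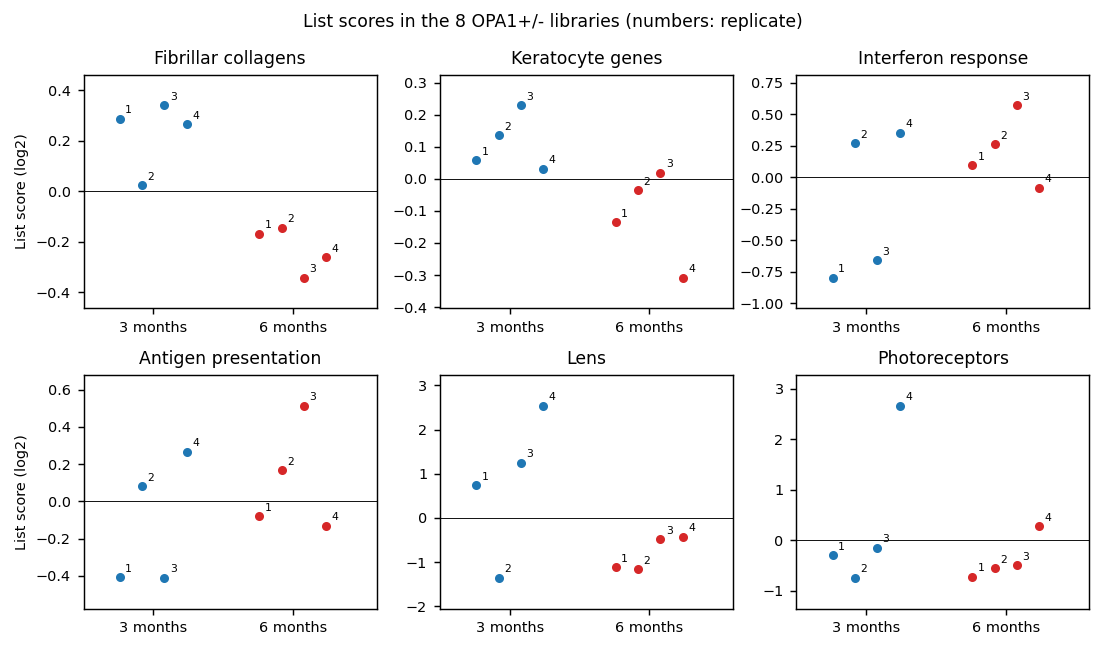
Mean score (log2 CPM relative to each gene's mean, averaged over the tested genes of a list) of 6 gene lists in each OPA1+/- library, with the replicate number beside each point and 3 months in blue, 6 months in red. The fibril-forming collagen and keratocyte lists separate the ages, the interferon and antigen presentation lists are low in replicates 1 and 3 at 3 months, and the photoreceptor list is high in replicate 4 at 3 months.

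Wnt signals supplied the remaining 2 falls, a ligand and an inhibitor. Wnt proteins bind Frizzled receptors and act through beta-catenin or through routes that do not use it. Wnt11 (chr7:98484319-98504402), a ligand best known for the latter, had 18.4, 17.2, 20.8 and 16.9 CPM at 3 months and 11.1, 11.5, 12.02 and 9.56 CPM at 6 months, a fall of 39.6% (log2 fold change -0.73 ± 0.13, edgeR adjusted p = 0.0413). Dkk1 (chr19:30523263-30527065), a secreted inhibitor that binds the Wnt co-receptors, had 7.95, 7.17, 7.02 and 7.78 CPM at 3 months and 4.81, 4.45, 4.65 and 4.39 CPM at 6 months. It fell by 38.9% (log2 fold change -0.71 ± 0.13, edgeR adjusted p = 0.0462), and libraries within each age differed little. Of 43 Wnt genes listed, 30 were tested, 2 fell (0.0643% of all genes tested did) and none rose. A negative value was found for 21 (49.4% of all genes tested had one). The median was -0.11, or -0.03 with the covariate of Mir6236, Lars2 and ENSMUSG00000119584.1. The receptor gene Fzd2 had -0.27 ± 0.09 and Fzd6 had 0.12 ± 0.04, neither past the test. Axin2, a common target of beta-catenin, was chosen after its values were seen and had 15.4, 15.02, 17.2 and 14.4 CPM at 3 months and 15.04, 13.3, 14.03 and 12.7 CPM at 6 months, with overlap (-0.17 ± 0.11, edgeR adjusted p = 0.684).

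Vldlr had the largest rise. It encodes a lipoprotein receptor that also receives Reelin, and its transcript is known to be raised by the integrated stress response through ATF4. Vldlr (chr19:27193884-27231631) had 7.95, 7.47, 6.01 and 7.83 CPM at 3 months and 14.3, 12.04, 10.3 and 15.7 CPM at 6 months, a rise of 77.7% (log2 fold change 0.83 ± 0.15, edgeR adjusted p = 0.0413). The RefSeq table holds 2 starts for Vldlr, and the 250 bases before the second start hold the only match among the called genes to the amino acid response element (TGATGNAA), the sequence ATF4 is known to bind. Capitals mark that element, read on the other strand, and 1 CCAAT box and 1 GC box.
Vldlr chr19:27216770-27217019: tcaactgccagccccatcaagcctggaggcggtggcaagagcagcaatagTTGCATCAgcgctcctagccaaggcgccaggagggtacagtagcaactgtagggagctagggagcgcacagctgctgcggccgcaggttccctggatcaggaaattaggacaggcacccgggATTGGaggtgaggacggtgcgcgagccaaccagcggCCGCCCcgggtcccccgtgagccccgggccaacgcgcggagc
The element was present in 3.91% of 27025 genes with a promoter in the table. Of 32 genes listed for mitochondrial or integrated stress responses, 30 were tested, 1 rose, none fell and 20 had a positive value (50.6% of all genes tested did), with a median of 0.07. Atf5, a factor of the mitochondrial stress response, had 27.6, 20.7, 29.6 and 27.6 CPM at 3 months and 34.9, 32.5, 37.4 and 29.2 CPM at 6 months, with overlap (0.35 ± 0.11, edgeR adjusted p = 0.32). The mitochondrial chaperone gene Hspd1 had 54.7, 50.8, 55.2 and 53.5 CPM at 3 months and 58.7, 57.9, 59.2 and 60.1 CPM at 6 months, without overlap (0.14 ± 0.07). Known ATF4 targets, chosen after their values were seen, lay on both sides of 0 with wide errors. Asns, the asparagine synthetase gene, had 0.48 ± 0.40 and Mthfd2, an enzyme of mitochondrial folate metabolism, 0.49 ± 0.35, while the cystine transporter gene Slc7a11 had -0.44 ± 0.49 and the pseudokinase gene Trib3 -0.22 ± 0.21. The list's median was -0.01 with the covariate of Mir6236, Lars2 and ENSMUSG00000119584.1.

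Id4 (chr13:48414704-48419502) encodes a helix-loop-helix protein that lacks a DNA-binding region and holds back other factors of that class. It had 12.7, 14.3, 13.03 and 13.1 CPM at 3 months and 16.5, 20.9, 17.1 and 19.3 CPM at 6 months, a rise of 39.3% (log2 fold change 0.48 ± 0.09, edgeR adjusted p = 0.0462). Dlg2 (chr7:90125880-92098455), a scaffold protein of membranes and synapses, had 72.7, 64.2, 74.04 and 69.8 CPM at 3 months and 79.5, 82.5, 89.02 and 86.3 CPM at 6 months, the smallest rise of the 5 at 20.1% (0.26 ± 0.05, edgeR adjusted p = 0.0462). The gene model Gm13293 (chr2:11344299-11348922) had 9.27, 9.61, 8.35 and 7.45 CPM at 3 months and 14.4, 13.4, 12.3 and 12.5 CPM at 6 months (0.60 ± 0.12, edgeR adjusted p = 0.0492). ENSMUSG00002076161.1 (chr9:78082585-78082915, minus strand, 331 bases) had no symbol in the table used and had the smallest p. It had 3224, 3252, 3321 and 3254 CPM at 3 months and 4258, 4147, 4472 and 4283 CPM at 6 months, a rise of 31.5% in an abundant short transcript (0.39 ± 0.05, edgeR adjusted p = 0.00598). In the fit with Mir6236, Lars2 and ENSMUSG00000119584.1 as a covariate its log2 fold change was 0.50 (edgeR adjusted p = 0.00309).

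OPA1 acts in mitochondria, and the lists of mitochondrial genes held no call by the edgeR test. Vldlr, called within the list of mitochondrial or integrated stress responses, encodes a lipoprotein receptor and is not a mitochondrial gene. All 76 listed nuclear genes of oxidative phosphorylation were tested, with a median log2 fold change of -0.00588 and a range of -0.15 to 0.20, and 6 of the 76 had an unadjusted p under 0.05, as did 9.05% of all genes tested. Uqcrc2, a core subunit of complex III, had 79.9, 77.3, 78.96 and 79.9 CPM at 3 months and 85.8, 85.9, 86.9 and 84.1 CPM at 6 months (0.12 ± 0.04, edgeR adjusted p = 0.427). Cox8a, a subunit of complex IV, had -0.14 ± 0.05. Of 15 genes listed on the mitochondrial genome, 9 were tested and all 9 had a positive value, from 0.03 to 0.12, none past the test. The smallest p was that of mt-Nd1, with 681, 681, 774 and 720.3 CPM at 3 months and 771, 758, 815 and 719 CPM at 6 months, which overlapped (0.10 ± 0.06). Among 25 tested genes of mitochondrial dynamics and cristae, the outer membrane fusion gene Mfn2 had -0.11 ± 0.05 and the fission gene Dnm1l 0.10 ± 0.05, and no gene passed. The fission gene's libraries did not overlap between ages, at 123, 118, 125 and 122 CPM against 135, 125, 130.2 and 132 CPM. All 79 cytosolic ribosomal protein genes and 78 of 79 mitochondrial ribosomal protein genes were tested without a call.

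Genes of the sensory nerve, Schwann cells and neurotrophic factors did not pass the test either. Cell bodies of corneal nerves lie in the trigeminal ganglion, outside the sample, and 5 of 27 sensory nerve genes were tested. Piezo2, the channel of touch, had 7.02, 6.48, 6.79 and 5.2 CPM at 3 months and 6.09, 5.37, 5.37 and 4.78 CPM at 6 months (-0.23 ± 0.14), and the neurotrophic receptor gene Ret had 0.25 ± 0.14. Of 22 Schwann cell genes, 11 were tested and 9 had a negative value (median -0.13). Mbp, a myelin protein that other cells also express, had 102, 92.5, 124 and 136 CPM at 3 months and 114, 84.8, 77.3 and 80.9 CPM at 6 months (-0.35 ± 0.16, edgeR adjusted p = 0.551). The adhesion gene L1cam had -0.14 ± 0.06. Of 26 genes of neurotrophic factors and receptors, 20 were tested, 16 had a negative value and the median was -0.15. Ntrk3, the receptor for neurotrophin-3, had 9.08, 7.25, 8.82 and 10.2 CPM at 3 months and 12.8, 11.04, 11.02 and 11.6 CPM at 6 months, without overlap (0.39 ± 0.11, edgeR adjusted p = 0.2). Serpinf1, which encodes the neurotrophic and antiangiogenic factor PEDF, had 64.8, 60.9, 66.9 and 58.7 CPM at 3 months and 46.9, 51.5, 51.5 and 38.9 CPM at 6 months (-0.41 ± 0.14, edgeR adjusted p = 0.405). Among 36 tested axon guidance genes Robo2 had -0.80 ± 0.26 and Ntn4 -0.14 ± 0.05, and none passed.

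Interferon response genes had positive values in almost all cases, with 2 low libraries at 3 months. Of 42 listed, 40 were tested, 39 had a positive value, the median was 0.31, and none passed the test or had an unadjusted p under 0.05. Ifit1, induced by interferon and double-stranded RNA, had 119, 342, 143 and 359.9 CPM at 3 months and 291, 350.3, 452 and 265 CPM at 6 months. Replicates 1 and 3 at 3 months were low and replicates 2 and 4 lay within the range at 6 months. Isg15 also was low in replicates 1 and 3 at 3 months, with 52.9, 155, 65.9 and 154 CPM at 3 months and 133, 155, 197 and 109 CPM at 6 months. Both genes were chosen after their values were seen. The list's score was -0.80, 0.27, -0.66 and 0.35 at 3 months and 0.09, 0.26, 0.57 and -0.08 at 6 months, and the median was 0.51 without replicate 4 at 3 months and 0.16 without replicate 1. All 20 antigen presentation genes were tested, 18 had a positive value and the median was 0.18, with the same pair of libraries low. Replication-dependent histone genes, of which 16 of 39 were tested, had a median of -0.35 with 15 negative values and no call. That median was -0.50 with the covariate of Kera and Lum and -0.73 with that of Mir6236, Lars2 and ENSMUSG00000119584.1. The 41 cell cycle genes had a median of 0.00332 (-0.20 with the latter covariate) and the 22 tested clock genes one of 0.08, with no call.

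The question whether these age differences depend on the Opa1 genotype was addressed by the interaction, the age change in OPA1+/- minus that in OPA1+/+. No gene passed (0.0% of genes tested, smallest adjusted p = 0.117 by edgeR), 1069 genes had an unadjusted p under 0.05, limma voom called 0 and the DESeq2 Wald test 21. The edgeR count was 12 when the 6-month replicate 1 of OPA1+/+ was omitted and 4 when that of OPA1+/- was. In OPA1+/+ cornea 5 genes changed with age (0.0321% of genes tested). ENSMUSG00002076161.1 was called in both genotypes, which is 6.67% of the 15 and 20% of the 5. Of the 15 genes called in OPA1+/-, 14 had the same sign in OPA1+/+, including all 10 that fell, and Id4 had the opposite sign. The share of all genes tested with the same sign in both genotypes was not worked out, so this count is a description.

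The called genes ranged from near equal to well apart between genotypes. Col11a1 had a log2 fold change of -0.93 ± 0.18 in OPA1+/+ against -0.996 ± 0.17 in OPA1+/-, an interaction of -0.06 ± 0.25. Col16a1 had -0.43 ± 0.09 in OPA1+/+, an interaction of -0.01 ± 0.12, and Olfml3 -0.49 ± 0.11, an interaction of -0.07 ± 0.15. At the other end, Mmp14 had 141, 138, 149.6 and 146 CPM at 3 months and 129, 150.4 and 149.6 CPM at 6 months in OPA1+/+, a log2 fold change of -0.0049 ± 0.05. Its interaction was -0.28 ± 0.07 (edgeR unadjusted p = 0.000697, adjusted p = 0.327). Mmp15 had -0.05 ± 0.09 in OPA1+/+ (interaction -0.41 ± 0.12, edgeR adjusted p = 0.42) and Vldlr 0.05 ± 0.17 (interaction 0.78 ± 0.23, edgeR adjusted p = 0.42). Id4 had 16.2, 17.2, 14.5 and 17.2 CPM at 3 months and 13.4, 13.5 and 15.7 CPM at 6 months in OPA1+/+, -0.20 ± 0.10, and an interaction of 0.68 ± 0.13 (edgeR adjusted p = 0.117). Of the 15 genes, 8 had an interaction with an unadjusted p under 0.05 by edgeR, against 6.87% of all genes tested. Since the genes were selected by the OPA1+/- change, which enters the interaction, that count is a description.

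**Figure D5:**
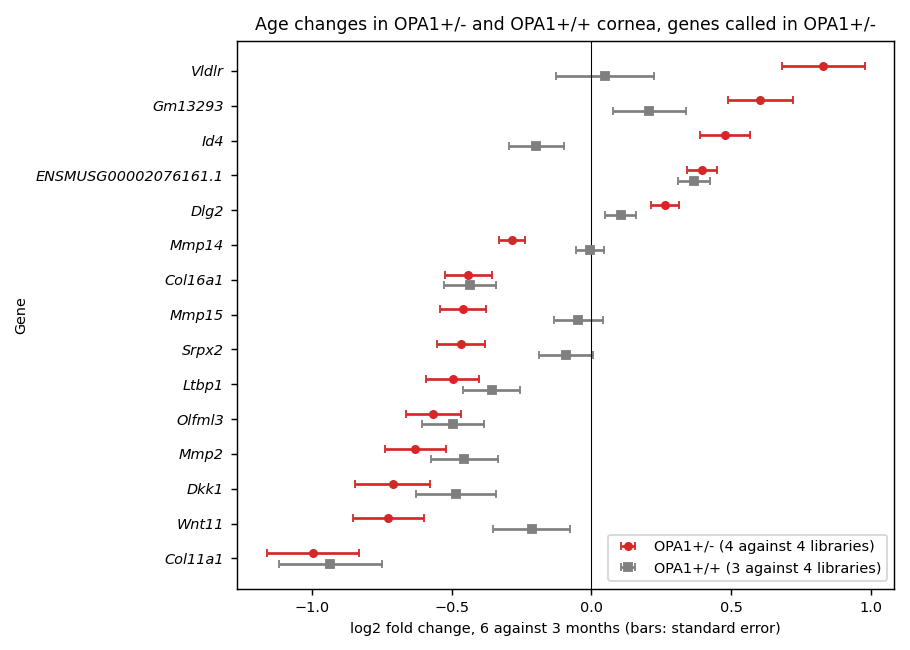
Log2 fold change of 6 against 3 months, with the standard error as bars, in OPA1+/- (red circles, 4 against 4 libraries) and OPA1+/+ (grey squares, 3 against 4 libraries), for the 15 genes called in OPA1+/-. Col11a1, Col16a1 and Olfml3 have close values in both genotypes, while Mmp14, Mmp15 and Vldlr are near 0 in OPA1+/+ and Id4 is on the other side of 0.

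The 10 genes with the smallest interaction p, 5 positive and 5 negative, are described next, and none passed the adjusted threshold. The clock output factor Tef had 354, 351, 322 and 331 CPM at 3 months and 331, 344, 387 and 397 CPM at 6 months in OPA1+/- (0.10 ± 0.06) against a log2 fold change of -0.45 ± 0.07 in OPA1+/+, an interaction of 0.55 ± 0.09. Nr1d2, a repressor within the clock, had 0.20 ± 0.07 in OPA1+/- and -0.34 ± 0.07 in OPA1+/+, and the clock gene Per3 0.05 ± 0.06 and -0.37 ± 0.06. Over the 22 tested clock genes, 7 had a positive and 3 a negative interaction with an unadjusted p under 0.05 (6.87% of all genes tested were under 0.05), and none passed after adjustment. The 3 negative ones, named after their values were seen, encode activators of the clock: Arntl with 0.11 ± 0.29 in OPA1+/- and 1.45 ± 0.30 in OPA1+/+, Npas2 with -0.44 ± 0.20 and 0.46 ± 0.20, and Clock with 0.08 ± 0.07 and 0.38 ± 0.08. Lifr, the receptor of leukaemia inhibitory factor, had 277, 308, 272 and 321 CPM at 3 months and 318, 367, 351 and 345 CPM at 6 months in OPA1+/- (0.23 ± 0.06) and -0.22 ± 0.07 in OPA1+/+. On the negative side, Jun had -0.21 ± 0.07 in OPA1+/- and 0.29 ± 0.07 in OPA1+/+, Jund -0.16 ± 0.06 and 0.32 ± 0.07, and Srf, a factor of actin-responsive genes, -0.30 ± 0.07 and 0.27 ± 0.08. The mechanically gated channel gene Piezo1 had 237, 236, 253 and 238 CPM at 3 months and 224, 216, 211 and 214 CPM at 6 months in OPA1+/- (-0.16 ± 0.04) and 0.13 ± 0.04 in OPA1+/+. Adgrf4, an adhesion receptor gene, had -0.30 ± 0.09 and 0.42 ± 0.09. These 9 interactions and that of Id4 had an edgeR adjusted p of 0.117. The labels give no time of day for tissue collection, and its part in the values of clock genes was not tested.

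Transcripts of lens and retina were uneven among the libraries at 3 months. Lens crystallin Cryaa had 3.38, 0, 13.8 and 56.4 CPM at 3 months and 0.226, 0.383, 1.79 and 2.82 CPM at 6 months, and the beta-crystallin Crybb2 2.65, 0, 6.24 and 23.5 CPM and 0.527, 0.23, 0.93 and 0.705 CPM. Replicate 2 at 3 months had no count of either, replicate 4 was the highest, and replicates 1 and 3 were also above every library at 6 months. Of 23 lens genes, 10 passed the minimum count, and 11 of 23 photoreceptor genes did, in both cases with the help of the 3-month libraries where they are high. The rod transducin gene Gnat1 had 2.72, 2.67, 3.98 and 30.5 CPM at 3 months and 2.63, 1.92, 2.72 and 4.47 CPM at 6 months. Without replicate 4 at 3 months the median log2 fold change of the photoreceptor list was -0.07, against -1.67 with it, and that of the lens list -2.16 against -3.62. Without that library and the OPA1+/+ library that also holds photoreceptor transcripts, 5 genes were called, 3 of them among the 15. Mmp14 and Mmp15 were 2 of the 3, with log2 fold changes of -0.30 and -0.51 and an edgeR adjusted p of 0.0113 each.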

How the data were processed

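Mouse cornea RNA was depleted of ribosomal RNA, and directional libraries were sequenced as single reads, per the labels' protocols. The values the authors deposited are raw counts per gene. Per the file headers, featureCounts 2.0.1 summed reverse-strand reads over the exons of each gene, using GENCODE mouse release M28 and alignments merged over lanes. The submitters' processing notes name mm10 and DESeq2, while release M28 is on GRCm39. Gene coordinates are those of the files and promoter coordinates those of RefSeq on GRCm38.p6. An aligner was not given in the sources used here. Symbols were found for 52081 of 55357 identifiers (94.1%).

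Counts of the 15 libraries were fitted with edgeR 4.0.16 in R 4.3.3 (robust quasi-likelihood, TMM, 1 mean for each of the 4 groups, 11 residual degrees of freedom, biological coefficient of variation 0.0878). Genes with 10 or more counts in 3 or more of the 8 OPA1+/- libraries were tested, and p-values were adjusted by Benjamini-Hochberg over all 15564, with a threshold of 0.05. Standard errors are the size of the log2 fold change over the root of its F statistic. On simulated counts of the 15564 genes for this comparison, the fit recovered 64% of 100 genes changed by 0.5 on the log2 scale and 91% of 100 changed by 1, with 4 false among 159 calls. The simulated libraries were independent, with the fit's own trended spread, and only genes with a mean of at least 1 CPM were changed. Differences that many genes of a library share were not simulated, so these shares need not hold for the real libraries. Libraries held 12654656 to 18194946 counts. Reads carry no molecular identifiers, so limits cover counting error only.

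The members and gene lists were chosen with earlier results of these data known. Named genes are Opa1, the called genes with a symbol and largest fold change, smallest p or highest CPM, up to 4 members by p of each list with a call, up to 2 of each mitochondrial, nerve, Schwann cell, neurotrophic and axon guidance list, and 5 genes on each side of the interaction. Other genes were picked from their values, as stated where they appear, or are markers of the tissue check or of lens and retina. Alternatives were DESeq2 1.42.0 size factors and Wald test, limma 3.58.1 voom with sample weights, 3 other filters, the replicate number as a block, the 8 libraries alone, a fold change minimum, and each library left out. After seeing the data, covariates for Kera and Lum and for Lars2, Mir6236 and ENSMUSG00000119584.1 were added, and a fit without the 2 libraries with photoreceptor transcripts. Some items are not reported here.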

Additional observations from a re-analysis of the deposited data

Results flagged for a closer look

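In 5 of 204 groups of 4 values examined (2.45%), the highest or lowest library lay far from the other 3, where chance alone gives about 1 group in 20. At 3 months, Col6a3 was 331.8 CPM in replicate 2 against 406.1 to 418.4 CPM in the others, and Nr1d2 was 152.5 CPM in replicate 3 against 172 to 175.5 CPM. Piezo1 was 253.1 CPM in the same replicate 3 against 235.6 to 238 CPM. Gnat1 was 30.51 CPM in replicate 4 at 3 months against 2.67 to 3.98 CPM. At 6 months, the corneal endothelial gene Slc4a11 was 247.2 CPM in replicate 1 against 170.4 to 171.6 CPM.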

How the results depend on the processing

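Alternatives that moved the number of genes changed with age (15, with 5 rising and 10 falling) gave 83 (26 and 57) without a minimum count, 34 (9 and 25) with the 8 OPA1+/- libraries alone, 35 (11 and 24) with limma voom, 71 (24 and 47) with the DESeq2 Wald test and 7 (2 and 5) with a minimum log2 fold change of 0.5. With filterByExpr 3 genes rose. Leaving out single libraries gave 1 to 24 changed genes, 1 to 7 rising and 0 to 17 falling, and 0 to 12 genes whose age change differed between genotypes. Without the 2 libraries with photoreceptor transcripts the numbers were 5 (1 and 4) and 9 for the difference between genotypes. With the Kera and Lum covariate 2 genes changed (1 and 1), and with the Lars2, Mir6236 and ENSMUSG00000119584.1 covariate 1 (1 rising, 0 falling) and 1 for the difference between genotypes. That difference counted 19 genes without a minimum count and 21 with DESeq2. All 15 genes stayed called without a minimum count, with voom and with DESeq2, and 13 of them with the 8 libraries alone. Apart from ENSMUSG00002076161.1, each of the 15 lost its call in 9 to 12 of the 15 fits that left out a library, and the cause was not tested. Sign changed for Per3 (-0.0087 to 0.106 over the fits that left out 1 library, negative without OPA1+/- replicate 4 at 6 months) and, with the Lars2 covariate, for mt-Nd1 (-0.0126), Timp3 (0.0596), Mir6236 (-0.184) and ENSMUSG00000119584.1 (-0.0559), none called. Mir6236 and ENSMUSG00000119584.1 are part of that covariate, so their sign changes are no separate result. Opa1 stayed uncalled in every setting. Medians with the covariates are given in the text above for some of the gene lists only. Among the lists left out there, the 5 tested sensory nerve genes had a median of 0.12 in the main fit. It was 0.27 with the Kera and Lum covariate and 0.42 with the Lars2, Mir6236 and ENSMUSG00000119584.1 covariate. When single libraries were left out it ran from -0.03 to 0.26.

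With the replicate number as a block 3 genes changed (1 rising, 2 falling), 2 of them among the 15. Same-numbered libraries of the 2 ages correlated at 0.0458, 0.368, -0.0205 and -0.0332 over genes. Of the 4 numbers, 1 matched its own number best, replicate 2. Whether same-numbered libraries share a batch or an origin cannot be told from these values. At these depths genes near 1 CPM have wide errors.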

Other observations

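A few genes with large fold changes did not pass the test, and all were chosen after their values were seen. ENSMUSG00002075795.1, a gene of 148 bases with no symbol, had 0.397, 0.686, 2.11 and 1.53 CPM at 3 months and 14.97, 20.9, 10.3 and 20.1 CPM at 6 months in OPA1+/-, with a log2 fold change of 3.80 ± 0.77 (edgeR adjusted p = 0.126). In the OPA1+/+ libraries it had 0.17, 3.27, 3.87 and 0.684 CPM at 3 months and 0.303, 0.149 and 4.58 CPM at 6 months. The high ones, replicates 2 and 3 at 3 months and 3 at 6 months, were also those high in Mir6236. In OPA1+/- both genes separated the ages, but at 6 months replicate 4 was lowest in Mir6236 and not in this gene. Whether the gene follows the leftover ribosomal RNA reads was not tested. Casp1, the inflammatory caspase that matures interleukin-1 beta, had 1.66, 3.74, 1.40 and 2.63 CPM at 3 months and 4.59, 7.75, 5.72 and 5.56 CPM at 6 months (1.32 ± 0.31, edgeR adjusted p = 0.159). Its log2 fold change in OPA1+/+ was 1.30. Clca3b, a member of the calcium-activated chloride channel regulator family, had 24.8, 15.7, 12.2 and 11.6 CPM at 3 months and 5.64, 5.52, 3.22 and 1.10 CPM at 6 months (-2.05 ± 0.45, edgeR adjusted p = 0.167). The log2 fold change of Clca3b in OPA1+/+ was -1.92 ± 0.47, an interaction of -0.13 ± 0.65.

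Some genes with non-overlapping ages missed the threshold, and those given here were chosen after their values were seen. Adrb1, the beta-1 adrenergic receptor gene, was close to it, with 24.2, 21.96, 20.4 and 20.5 CPM at 3 months and 15.9, 14.3, 16.6 and 17.01 CPM at 6 months (-0.45 ± 0.09, edgeR adjusted p = 0.0552). So were Dleu2, a long non-coding RNA gene, with 57.6, 54.99, 51.2 and 54.9 CPM at 3 months and 67.1, 67.8, 64.05 and 66.9 CPM at 6 months (0.28 ± 0.06, edgeR adjusted p = 0.0552), and the amino acid transporter gene Slc43a2, with 65.7, 59.2, 52.9 and 45.4 CPM at 3 months and 39.3, 40.4, 29.5 and 34.6 CPM at 6 months (-0.63 ± 0.11, edgeR adjusted p = 0.0597). Further from it, Npy, which encodes neuropeptide Y, had 36.2, 42.6, 39.5 and 44.5 CPM at 3 months and 62.7, 59.6, 71.1 and 48.2 CPM at 6 months (0.57 ± 0.12, edgeR adjusted p = 0.122). Gclc, the rate-limiting enzyme of glutathione synthesis, had 53.9, 58.8, 50.2 and 54.3 CPM at 3 months and 62.1, 74.5, 67.2 and 65.7 CPM at 6 months (0.31 ± 0.07, edgeR adjusted p = 0.11). For these 5 genes the 2 ages did not overlap.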
